A study of Sus scrofa with 2 samples.

Results

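Macrophages of the longissimus dorsi, the long muscle of the back, were picked out of single-cell libraries of 2 pig breeds by their transcripts. They were chosen by measured UMI counts, so the levels of the genes used are a description and no finding. A cell counted as a macrophage when it had at least 500 genes detected, at least 5 UMIs (unique molecular identifiers, each standing for 1 captured RNA molecule) summed over C1QB, C1QC and TYROBP, and fewer than 50 UMIs per 10000 summed over the stromal genes DCN, LUM and MFAP5. C1QB and C1QC encode chains of the complement starter C1q, and TYROBP encodes a signalling adaptor of myeloid receptors. This held for 462 of the 25851 cells with at least 500 genes. The library of the Guangdong small-eared spotted pig (GDSS) gave 316 of 11533 such cells, a share of 2.74% with an exact Clopper-Pearson 95% interval of 2.45 to 3.05%. The Yorkshire library gave 146 of 14318, or 1.02% (0.862 to 1.20%). Within the macrophages, cells with at least 2 UMIs summed over LYVE1, FOLR2 and MRC1, genes of tissue-resident macrophages, were set beside cells with none.

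Macrophages are phagocytes that clear dead cells, debris and damaged fibres, sample antigen and release cytokines that steer repair. In skeletal muscle, resident cells that carry LYVE1, FOLR2, MRC1 and CD163 lie along vessels and in the connective tissue between fibres, and monocytes that arrive from blood can turn into macrophages during injury. Early arrivals are known for S100A8, S100A12 and inflammatory cytokines, and a further set of macrophages is known for high levels of major histocompatibility complex (MHC) class II.

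Both samples were longissimus dorsi of piglets, 1 g of muscle per piglet, and differed by breed, GDSS or Yorkshire, with 1 library each. Red blood cells were lysed and dead cells taken out with magnetic beads before capture with the 10x Genomics v2 chemistry. How many piglets went into a library, their age and sex, and what "P0" stands for are not given in the sources used here. Since each breed had 1 library, nothing was tested, and breed cannot be told apart from animal, preparation and library. Every interval below is a 95% interval that covers counting error only.

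The labels name the cells of both samples intramuscular vascular stem cells, and do not mention macrophages. Besides the genes of the rule, the cells carried FCER1G, the gamma chain of Fc receptors, in 98.1% of GDSS and 97.9% of Yorkshire macrophages, against 1.14% and 0.632% of all other barcodes. CSF1R, the receptor for the macrophage growth factor CSF1, was found in 91.8% and 89.7% against 0.802% and 0.385%. The leukocyte gene PTPRC (CD45) was found in 67.1% and 70.5% against 0.526% and 0.144%. Of the 12 macrophage identity genes present in the feature list, all 12 had at least 50 UMIs over both macrophage sums, and their summed level was 10335 CPM (UMIs of a gene scaled to a fixed total of all UMIs) in GDSS and 8460.4 CPM in Yorkshire macrophages, against 2749 and 3592 CPM in other barcodes. Most of the level elsewhere was CD74, at 2676 and 3537 CPM.

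Macrophages were deeper than the other cells. Their median was 6575.5 UMIs and 1692.5 genes in GDSS and 8201 UMIs and 1984.5 genes in Yorkshire, against 2855 and 3032 UMIs in the other cells with at least 500 genes. They held 2357684 UMIs in GDSS and 1312120 in Yorkshire, 5.60% and 2.42% of all UMIs of their libraries. More than 10% mitochondrial UMIs were found in 40 GDSS and 14 Yorkshire macrophages. No macrophage barcode occurred in both libraries, and 1 macrophage barcode of a library was also a barcode of the other.

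The threshold of the rule lay far below most macrophages, whose median over C1QB, C1QC and TYROBP was 40 UMIs in GDSS and 63 in Yorkshire. At exactly 5 UMIs stood 7 GDSS and 4 Yorkshire cells, and just outside, at 4 UMIs, 7 and 5 barcodes. The limit on stromal genes kept out 16 GDSS barcodes and 0 Yorkshire barcodes, and the limit of 500 genes kept out 8 and 6. None of the 3 stromal genes had a UMI in 167 GDSS and 107 Yorkshire macrophages.

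**Figure D1:**
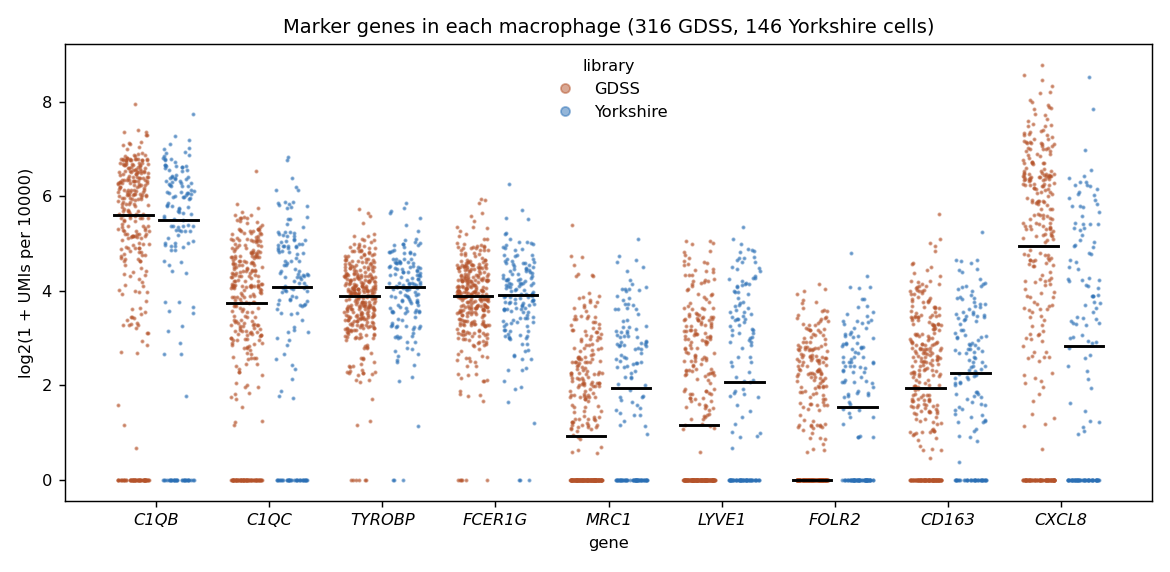
Each point is 1 macrophage (316 GDSS in brown, 146 Yorkshire in blue), the vertical axis is log2(1 + UMIs per 10000) and black bars are medians over cells. FCER1G and TYROBP are found in nearly every cell of both libraries, C1QB and C1QC are at 0 in a separate group of cells, and the CXCL8 median is higher in GDSS.

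Markers of other cell types were counted in the same cells. The 5 listed erythroid genes summed to 1.27 CPM in GDSS and to 0.762 CPM in Yorkshire macrophages, against 58.3 and 53.5 CPM in other barcodes, and 0 macrophages had 5 or more erythroid UMIs. For the 8 markers of fibro-adipogenic progenitors (FAPs), the stromal cells of muscle, the sums were 2207 and 1760 CPM against 42402 and 14408 CPM in other barcodes. The rule set a limit on the stromal genes DCN, LUM and MFAP5, so low FAP levels describe the chosen cells and are no finding. Myofibre markers gave 164 CPM in GDSS and 892 CPM in Yorkshire macrophages, against 415 and 1056 CPM elsewhere, and 5 or more myofibre UMIs were found in 4.43% and 30.8% of macrophages. At least 5 UMIs of T and NK cell markers were found in 25% and 49.3% of macrophages, and 80.2% and 80.6% of those UMIs came from the chemokine gene CCL5. The B cell gene CD79A was at 74.2 and 161 CPM against 73.5 and 215 CPM in other barcodes, and the glial gene ERBB3 at 335 and 436 CPM against 459 and 812 CPM, so neither was raised in macrophages. Monocyte, dendritic cell and neutrophil markers reached 5 UMIs in 47.2%, 52.2% and 28.5% of GDSS macrophages. In Yorkshire the shares were 59.6%, 51.4% and 24.7%. Other barcodes had 4.09%, 0.894% and 0.150% in GDSS and 1.92%, 0.591% and 0.0412% in Yorkshire. CD83 gave 80.6% and 80.5% of the dendritic cell UMIs, and ARG1 80.9% and 65.4% of the neutrophil UMIs. For mast cell markers the shares were 8.54% and 7.53%, against 0.134% and 0.564%, and MS4A2 gave 97.7% and 77.2% of those UMIs in macrophages. Doublets were not removed, and the part of these transcripts in the results below was not tested.

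Free RNA in the droplets was estimated from 17 genes of other cell types, as the median ratio of their level in macrophages to their level over all barcodes. That ratio was 0.0519 in GDSS and 0.0941 in Yorkshire. A gene named from a ranking between the libraries or between groups of macrophages had to reach 3 times the level this ratio gives, where it was higher.

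The macrophages were first set beside all other barcodes. Among 2821 genes with at least 50 UMIs in the macrophages of each library, leaving out those of the rule, 595 were at least 2-fold higher in macrophages in both libraries (21.1% of the genes) and 125 at least 2-fold lower in both (4.43%). The share at least 2-fold higher was 25.1% of 4079 genes in GDSS and 25.5% of 2915 genes in Yorkshire. Genes entered by their UMIs in macrophages alone, so many genes that are low there were left out. The counts of higher and lower genes can therefore not be weighed against each other.

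CD209, a lectin that binds mannose sugars, had the largest smaller fold of both libraries, at 119.6 CPM in GDSS and at 955 CPM in Yorkshire macrophages, against 0.377 CPM in other barcodes of either library. C1QA, which encodes the remaining chain of C1q, was at 1037 CPM (996 to 1079) in GDSS and at 1099 CPM (1043 to 1157) in Yorkshire macrophages, against 3.57 and 0.793 CPM in other barcodes. VSIG4, a complement receptor of tissue macrophages, was at 287 and 228 CPM against 1.11 and 0.113 CPM. PYCARD, the adaptor of inflammasomes, was at 124 and 129.6 CPM against 0.528 and 0.415 CPM. All 6 genes of the complement list that entered this comparison were at least 2-fold higher in both libraries.

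PLD4, MRC1, BANK1 and NCKAP1L came next in this order, between 193-fold and 215-fold in the library with the smaller fold. NCF4, a subunit of the phagocyte NADPH oxidase, was at 265 CPM in GDSS and at 242 CPM in Yorkshire macrophages, 188-fold and 233-fold above other barcodes. TBXAS1, thromboxane synthase, was 162-fold (87.2 to 335) and 582-fold (238 to 1845) above them. LAIR1, an inhibitory collagen receptor, was 187-fold (103 to 371) and 2403-fold (651 to 20071) above them. The wide Yorkshire interval rests on a level of 0.0377 CPM in other barcodes. P2RY12, a receptor for ADP known from microglia, was found in 19.9% and 22.6% of macrophages and in 0.0585% and 0.0344% of other barcodes. The other genes of the 20 with the largest smaller fold were LY86, ACOD1, CXorf21, IL1A, MS4A7, CD300C, CD163 and CD86, between 146-fold and 183-fold in the library with the smaller fold.

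Most listed cytokine and chemokine genes were higher in macrophages than in other barcodes. CXCL2, which attracts neutrophils, was the highest of the 18 inflammatory genes with enough UMIs, at 23069 CPM in GDSS and at 16264 CPM in Yorkshire macrophages, against 1201 and 1018 CPM in other barcodes. The chemokine genes CCL4 and CCL2, which attract lymphocytes and monocytes, were at 6574 and 5295 CPM in GDSS and at 15704 and 4069 CPM in Yorkshire macrophages. CCL14, a chemokine of resident cells that was named by a later split, was at 3039 and 2839.7 CPM, 141-fold and 129-fold above other barcodes. All listed cytokine and chemokine genes together took 47011 CPM in GDSS and 47546 CPM in Yorkshire macrophages, against 3640 and 2291 CPM elsewhere. Of 17 such genes that entered the comparison, 15 were at least 2-fold higher in macrophages in both libraries.

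FAP genes were lower in macrophages, while most immediate early genes and heat shock chaperones did not pass 2-fold in both libraries. Immediate early genes, which are switched on within minutes of a stimulus, summed to 4752 CPM in GDSS and 10510.5 CPM in Yorkshire macrophages and to 23488 and 15714 CPM in other barcodes, and of 10 that entered 0 were at least 2-fold higher and 1 at least 2-fold lower in macrophages in both libraries. All 4 FAP genes that entered the comparison were at least 2-fold lower in macrophages in both libraries. The rule selected against stromal genes, and its limit on them kept out 16 GDSS and 0 Yorkshire barcodes. Of 13 heat shock chaperones, 1 was at least 2-fold lower in both libraries and 0 higher, beside 4.43% and 21.1% of all genes. Chaperones summed to 16997 CPM in GDSS and 22657 CPM in Yorkshire macrophages, against 23807 and 20468 CPM in other barcodes.

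The macrophages were not of a single kind. At least 2 UMIs of LYVE1, FOLR2 and MRC1 were found in 178 GDSS cells, or 56.3% of macrophages (50.7 to 61.9%), and in 97 Yorkshire cells, or 66.4% (58.2 to 74.0%). None were found in 108 and 45 cells, and exactly 1 UMI in 30 and 4 cells. These shares move with depth. With every macrophage thinned to 1000 UMIs, and 0 cells left out, at least 2 UMIs remained in 25% of GDSS (20.3 to 30.2%) and 40.4% of Yorkshire macrophages (32.4 to 48.8%). A LYVE1 UMI was found in 0.376% of the other barcodes in GDSS and 0.790% in Yorkshire, and a FOLR2 UMI in 10.6% and 6.83%.

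A further split, chosen after the values were seen, cut across the rule. No UMI of C1QB or C1QC was found in 58 GDSS cells that met the rule (18.4%, 14.2 to 23.1%) and 32 such Yorkshire cells (21.9%, 15.5 to 29.5%), which entered through TYROBP alone. These cells are called macrophages by the rule only, and whether they are macrophages was not tested. They stay in the sums of both libraries. Their median depth was 8700.5 UMIs in GDSS and 6973.5 in Yorkshire, against 6060.5 and 8295.5 UMIs in the cells with C1Q, so it was higher in 1 library and lower in the other. Of these cells, 57 in GDSS and 31 in Yorkshire had no UMI of LYVE1, FOLR2 or MRC1, and 0 in either library had 2 or more, which allows a share of up to 0.949% and 2.05% of macrophages. The cells without LYVE1, FOLR2 and MRC1 therefore comprised 51 GDSS and 14 Yorkshire cells with C1Q, and 57 and 31 without it. This left 3 groups: resident-gene cells with C1Q, C1Q cells without the resident genes, and cells without C1Q.

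The resident-gene cells carried further genes of resident macrophages that the split did not use. Among 4972 genes with at least 20 UMIs over both states in each library, 204 (4.1%) were at least 2-fold higher and 215 (4.32%) at least 2-fold lower in the cells with LYVE1, FOLR2 and MRC1 than in the cells with none, in both libraries. Of 8 genes of the resident list that could be set beside each other this way, 7 were at least 2-fold higher in both, and their medians were 3.18 in GDSS and 3.42 in Yorkshire on the log2 scale, against 0.01 and -0.16 for all 4972 genes.

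SELENOP, the selenium transport protein, was at 2672 CPM in the resident-gene cells and 252 CPM in the cells with none in GDSS, and at 2606 and 106 CPM in Yorkshire. CD209 was at 212 and 1.20 CPM in GDSS and at 1363 and 36.3 CPM in Yorkshire. STAB1, a scavenger receptor, was at 663 and 57.4 CPM, and at 562 and 41.4 CPM. The same order held in both libraries for PEPD, an enzyme that splits proline dipeptides, at 629 against 33.5 CPM and 1313 against 59.6 CPM.

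C4BPA, an inhibitor of complement, was 10.1-fold and 13.3-fold higher in the resident-gene cells, though 41.8% of its Yorkshire UMIs came from 1 cell. HSD11B1, which turns cortisone into active cortisol, was 9.12-fold and 9.33-fold higher. ACP5, tartrate-resistant acid phosphatase, was 10.7-fold and 23.7-fold higher, and THBS3, a thrombospondin of the matrix, 11.5-fold and 31.4-fold. PLTP, the phospholipid transfer protein, and the transcription factor gene ETV1 were the remaining pair of the 10 genes with the largest shared difference, at 25.6 and 17.3 CPM in GDSS and at 24.5 and 26.8 CPM in Yorkshire resident-gene cells.

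The calgranulin genes S100A12 and S100A8 were among the 10 lowest genes. S100A12 and S100A8, known from monocytes and neutrophils, were at 447 and 128 CPM in the GDSS cells without resident genes and at 18.8 and 5.28 CPM in the resident-gene cells. In Yorkshire they were at 873 and 308 CPM against 0 UMIs. With the 0 set to 3 UMIs over the group, the folds are at least 261 and at least 92.1. Without the top cell of each gene, 211 of 337 S100A12 and 54 of 119 S100A8 UMIs were left in Yorkshire macrophages. All 25 S100A12 UMIs of the GDSS resident-gene cells came from 1 cell. ACOD1, which makes the antibacterial metabolite itaconate, was 20.8-fold and 36.0-fold higher in the cells without resident genes. PTGES, prostaglandin E synthase, was 10.0-fold and 24.0-fold higher, and the adhesion receptor gene ADGRG1 21.7-fold and 40.3-fold. SERPINB2, P2RY13, TNIP3, MREG and CCDC69 completed the 10 lowest genes, between 9.32-fold and 39.7-fold in GDSS. The inflammatory list did not divide this way, since of 17 genes 1 was at least 2-fold higher, 1 at least 2-fold lower and 11 had opposite directions in the libraries.

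**Figure D2:**
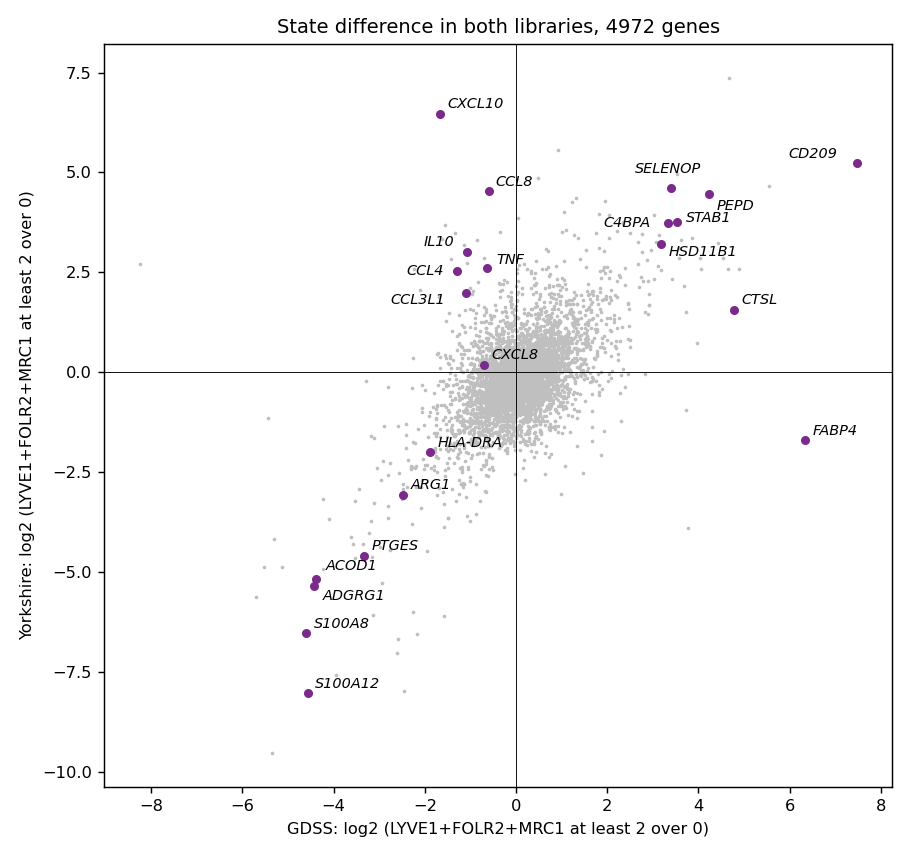
Each point is 1 of 4972 genes, the horizontal axis is the log2 ratio of cells with at least 2 UMIs of LYVE1, FOLR2 and MRC1 over cells with none in GDSS, and the vertical axis is the same ratio in Yorkshire. CD209, PEPD and SELENOP lie high and S100A12, S100A8 and ACOD1 low in both libraries, while CXCL10, IL10, CCL4 and CCL3L1 lie low in GDSS and high in Yorkshire.

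Several of these genes were highest in the cells that lacked C1Q. Among 5071 genes, 295 (5.82%) were at least 2-fold higher and 188 (3.71%) at least 2-fold lower in the C1Q cells than in the cells without C1Q, in both libraries. C1QA, not used by the split, was at 1359 CPM in the C1Q cells of GDSS and 1359 CPM in those of Yorkshire, and had 1.79 and 0 CPM in the cells without C1QB and C1QC. CCL14 was at 3945 and 3484 CPM in the C1Q cells and at 125 and 116 CPM in the others. TCN2, a carrier of vitamin B12, and NPL, a sialic acid lyase, were 30.3-fold and 17.0-fold higher in the C1Q cells of GDSS and 33.8-fold and 24.6-fold in those of Yorkshire. All 11 resident genes that entered were higher in the C1Q cells of both libraries, 10 of them at least 2-fold.

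The cells without C1Q had monocyte and arginine genes. ARG1, the arginase that turns arginine into ornithine, was at 4223 CPM in GDSS and at 2920.1 CPM in Yorkshire cells without C1Q, against 479 and 237 CPM in the C1Q cells. S100A12 was at 639.8 and 1307 CPM against 22.8 and 8.48 CPM, and 22.1% and 38.4% of its UMIs without C1Q came from 1 cell. ARG2, the mitochondrial arginase, was 9.91-fold and 38.0-fold higher without C1Q, and SMOX, which oxidises the polyamine spermine, was 21.9-fold and 8.84-fold higher. THBS1, a thrombospondin known from monocytes and platelets, was at 1599 and 1088 CPM against 129.6 and 123 CPM, and 11.6% and 23.1% of its macrophage UMIs came from 1 cell in each library. CYP1B1, TNIP3, CPSF6, SERPINB2 and S100A8 were the remaining genes of the 10 highest.

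Chaperone and monocyte lists divided along the same split. Of 12 glycolysis and hypoxia genes, 1 was at least 2-fold lower and 1, VEGFA, at least 2-fold higher in the C1Q cells of both libraries, near the shares of all genes, and 10 lay below 0 in both. LDHA, lactate dehydrogenase, was at 1955 CPM in GDSS and at 1247 CPM in Yorkshire cells without C1Q, against 275 and 282 CPM in the resident-gene cells. TIMP1, an inhibitor of matrix proteases, was at 6087 and 3633 CPM against 1198 and 702 CPM. Of 7 monocyte markers with enough UMIs, 4 were at least 2-fold lower in the C1Q cells of both libraries and 0 higher. Heat shock chaperones were higher in the C1Q cells in both libraries for 13 of 13 genes, 10 of them at least 2-fold, among them HSP90AA1. CSF3R, the neutrophil growth factor receptor, was at 37.5 CPM in GDSS and at 59.8 CPM in Yorkshire cells without C1Q, against 3.01 and 0 CPM in the resident-gene cells. Of 4 listed neutrophil genes, 3 were at least 2-fold lower in the C1Q cells of both libraries and 0 higher. The part of other myeloid cells, such as neutrophils, in this group was not tested.

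Within the C1Q cells, 3 class II genes were higher where the resident genes were absent. Among 4262 genes, 136 (3.19%) were at least 2-fold higher and 93 (2.18%) at least 2-fold lower in the resident-gene cells than in the C1Q cells with none, in both libraries. Of 6 genes of the class II list, SLA-DQB1 and CD74 were at least 2-fold lower in the resident-gene cells of both libraries, 4 lay below 0 and 2 above 0 in both. The class II alpha chain listed under the human symbol HLA-DRA, which is not on that list, was at 4387 CPM in GDSS and at 2895 CPM in Yorkshire C1Q cells without resident genes, and at 1099.5 and 419 CPM in the resident-gene cells. SLA-DQB1, a class II beta chain of the pig, was at 3347 and 3216 CPM against 997 and 611 CPM. CD74, the chaperone of class II chains, was at 8931 and 8535 CPM against 3721 and 2582 CPM. Of the 14 Yorkshire cells without resident genes, 1 held 33.0% of the HLA-DRA, 28.5% of the SLA-DQB1 and 28.7% of the CD74 UMIs, and without the top cell of each gene the levels there were 2181, 2588 and 6843 CPM. The cells without C1Q lay between, with HLA-DRA at 3896 CPM in GDSS and at 872 CPM in Yorkshire.

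IDO1, SLAMF7, CD72 and HPGD were among the 10 lowest genes of this comparison. IDO1, which breaks down tryptophan, was at 175 and 157 CPM in the C1Q cells without resident genes against 36.9 and 3.35 CPM in the resident-gene cells. In Yorkshire 87.0% of those UMIs came from 1 of the 14 cells, and without it the level was 26.7 CPM. SLAMF7, a receptor of activated leukocytes, was 10.2-fold and 5.94-fold higher, CD72 5.91-fold and 9.18-fold, and HPGD, which inactivates prostaglandins, 7.84-fold and 7.35-fold. IDO1 and SLAMF7 were not particular to this group, since the cells without C1Q had 179 and 235 CPM of IDO1 and 547 and 625 CPM of SLAMF7. CTSL, a lysosomal cysteine protease, ran the other way, at 7.0 and 6.83 CPM against 263 and 162 CPM in the resident-gene cells. The Yorkshire group had only 14 cells and also carried endothelial transcripts. ACKR1, a chemokine-binding receptor of venules, was at 533 CPM there against 24.5 CPM in the resident-gene cells, CLDN5 at 287 against 22.3 CPM, and PLVAP at 505 against 55.8 CPM. In GDSS both ACKR1 and CLDN5 were at 0 CPM in this group, and PLVAP was at 161 CPM. The part of those transcripts in the Yorkshire values was not tested.

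**Figure D3:**
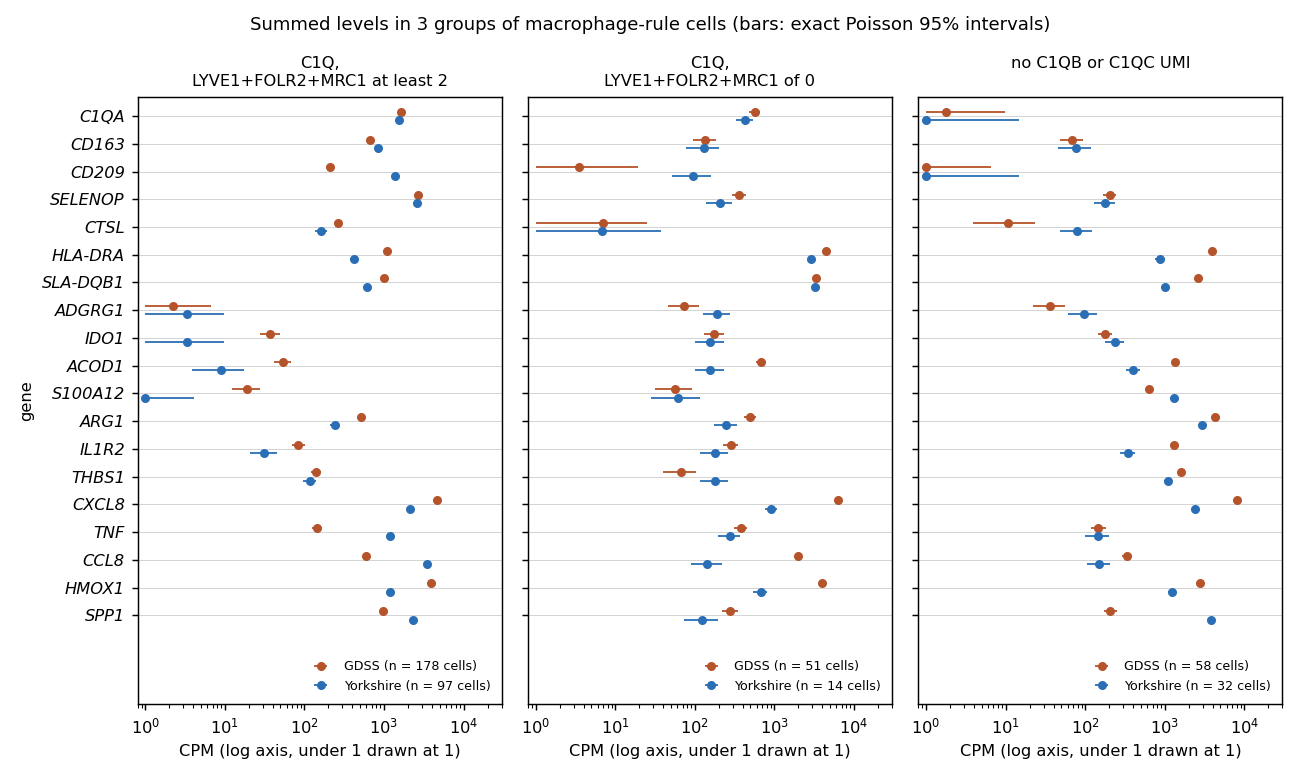
Summed levels in CPM on a log axis are shown for 19 genes in 3 groups of macrophages, with exact Poisson 95% intervals, GDSS in brown and Yorkshire in blue. CD209 and SELENOP are highest in the left group, HLA-DRA and SLA-DQB1 in the middle group, and S100A12, ARG1 and THBS1 in the right group of both libraries.

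The macrophages of both libraries were then set beside each other. With 50 UMIs over the pair of sums as the minimum, 5351 genes entered, of which 191 (3.57%) were higher in GDSS macrophages by 2-fold or more and 346 (6.47%) in Yorkshire macrophages. The median over all 5351 genes was -0.04 on the log2 scale of GDSS over Yorkshire. Listed core macrophage genes outside the rule lay within 2-fold, as did most of the 5351 genes. FCER1G was at 1468 CPM in GDSS and at 1501 CPM in Yorkshire macrophages, CD68 at 409 and 428 CPM, and PTPRC at 293 and 291 CPM. With the genes of the rule left out, 0 of 12 identity genes, 0 of 6 complement genes and 0 of 8 genes of Fc receptor and ITAM signalling were 2-fold apart, and the list medians were -0.10, -0.06 and 0.01. At the shares of all genes given above, lists this short hold few genes that are 2-fold apart. C1QB, which the rule used, was at 4915 and 4893 CPM.

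**Figure D4:**
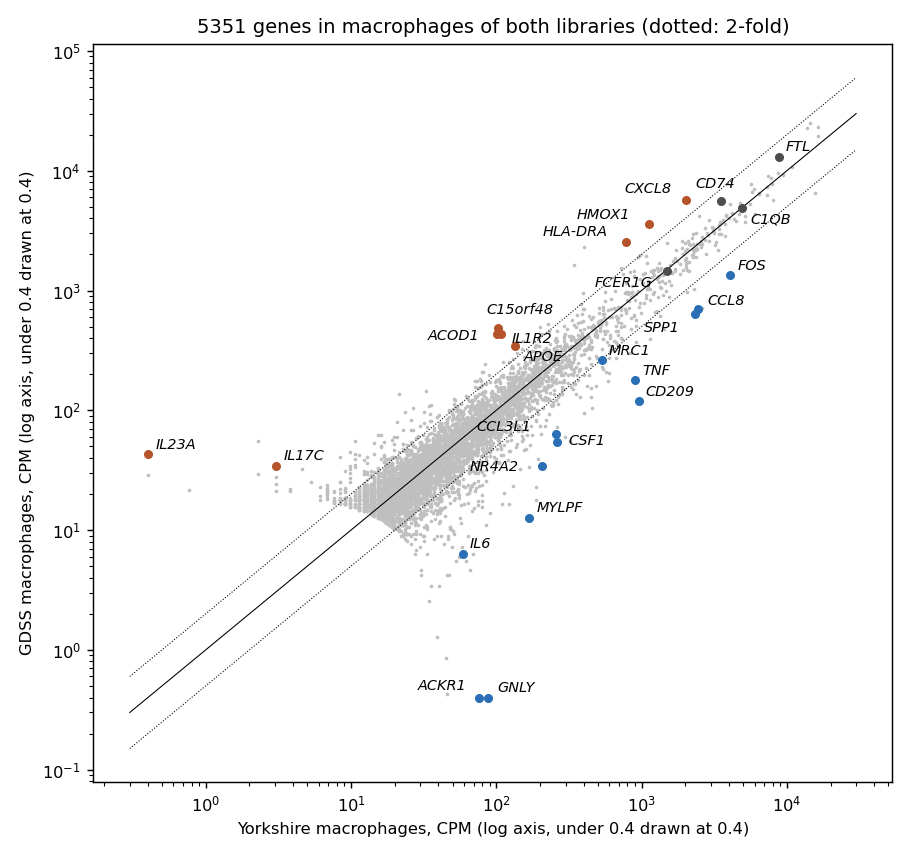
Each point is 1 of 5351 genes, with the level in Yorkshire macrophages on the horizontal and in GDSS macrophages on the vertical axis, both in CPM on log axes, and dotted lines at 2-fold. FCER1G lies on the diagonal, CXCL8 and HMOX1 above the upper line, and TNF, CCL8, CD209 and FOS below the lower line.

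CXCL8 and HMOX1 were the abundant genes of the GDSS side. CXCL8, a chemokine for neutrophils, was at 5701 CPM (5605 to 5798) in GDSS and at 2019.6 CPM (1943 to 2098) in Yorkshire macrophages, a ratio of 2.82 (2.71 to 2.94). A CXCL8 UMI was found in 74.1% and 59.6% of macrophages, and in 62.3% and 45.2% once each was thinned to 1000 UMIs. Other barcodes, which were shallower as given above, held 54.7 and 6.64 CPM, with a CXCL8 UMI in 3.08% and 1.81%. The GDSS level was higher in each of the 3 groups, at 4598 against 2145 CPM in resident-gene cells, 6270 against 915 CPM in C1Q cells without resident genes and 8085 against 2362 CPM in cells without C1Q. In the middle group 55.2% of the Yorkshire UMIs came from 1 cell.

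HMOX1 encodes haem oxygenase, which frees iron from haem. It was at 3585 CPM (3509 to 3663) in GDSS and at 1129 CPM (1073 to 1188) in Yorkshire macrophages, 3.17-fold apart (3.0 to 3.36), and at 139 and 48.4 CPM in other barcodes. SLC48A1, which carries haem out of the lysosome, was at 39.4 and 10.7 CPM, a ratio of 3.70 (2.10 to 7.02). FTL, the ferritin light chain that stores iron, was at 13104 and 8789 CPM, a ratio of 1.49 (1.46 to 1.52). NQO1, an antioxidant quinone reductase, was at 55.6 and 10.7 CPM, a ratio of 5.21 (3.0 to 9.79). CD163, the receptor for haemoglobin bound to haptoglobin, was lower in GDSS, at 423 against 603 CPM. The 9 iron genes had a list median of 0.07. Of them 2 passed 2-fold on the GDSS side and 0 on the other, beside 3.57% and 6.47% of all genes.

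C15orf48, a mitochondrial protein gene known to be induced by inflammatory signals, was at 485 CPM in GDSS and at 102 CPM in Yorkshire macrophages, a ratio of 4.75 (3.97 to 5.73). IL17C, a cytokine of the IL-17 family, had a UMI in 72 of 316 GDSS and 4 of 146 Yorkshire macrophages, at 34.4 and 3.05 CPM. IL1A was 1.72-fold higher in GDSS, at 503 against 293 CPM. ACOD1 and IL1R2, the decoy receptor of interleukin 1, were 4.30-fold and 4.02-fold higher, and IL1R2 was chosen after its values were seen. Both of these genes were at their highest in the cells without C1Q, at 1328 and 1319 CPM in GDSS and 402 and 343 CPM in Yorkshire.

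Other genes of the GDSS side were low or rested on few cells. PFKFB4, a regulator of glycolysis, was found in 56 and 6 macrophages, PLXNA1, a semaphorin receptor, in 72 and 12, SLC2A6, a lysosomal sugar transporter, in 63 and 10, and the lipid antigen presenter CD1B in 42 and 6. P2RY8, TSKU and ADAMTSL4 were found in 32, 38 and 33 GDSS and in 3, 5 and 4 Yorkshire macrophages. IL23A had 101 UMIs in 5 GDSS macrophages, 78.2% of them in 1 cell, and 0 in Yorkshire. IFIT2, an interferon-induced gene, was 4.01-fold higher in GDSS, with 71.3% of its UMIs in 1 cell, and without the top cell of each library its log2 ratio was 0.53 in place of 2.01.

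SLA-DQB1 and HLA-DRA were higher in GDSS macrophages, and lower in GDSS in the other barcodes. SLA-DQB1 was at 1962 CPM in GDSS and at 969 CPM in Yorkshire macrophages, a ratio of 2.02 (1.90 to 2.15), and at 49.8 and 153 CPM in other barcodes. That ratio was below 2-fold under 7 of 17 alternatives. HLA-DRA, chosen after its values were seen, was at 2553 and 783 CPM, 3.26-fold apart (3.05 to 3.48), and at 53.8 and 181 CPM elsewhere. CD74 was 1.59-fold higher (1.53 to 1.64). The list of 6 class II genes, which does not hold HLA-DRA, had 1 gene past 2-fold on the GDSS side, 0 on the other, 1 below 0 and a median of 0.47. Of all genes, 3.57% and 6.47% passed 2-fold on these sides. SLA-DQB1 was also higher in GDSS than in Yorkshire without C1Q (2613 against 1008 CPM) and in the resident-gene cells (997 against 611 CPM). The levels were closer in the C1Q cells without resident genes (3347 against 3216 CPM), where Yorkshire had only 14 cells. That last group was 16.1% of GDSS and 9.59% of Yorkshire macrophages. The part of the group shares in the SLA-DQB1 ratio was not tested.

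TNF and several chemokine genes were higher in Yorkshire macrophages. TNF, the tumour necrosis factor, was at 178 CPM (162 to 196) in GDSS and at 902 CPM (852 to 955) in Yorkshire macrophages, 5.07-fold higher in Yorkshire (4.53 to 5.68). A TNF UMI was found in 25.9% and 65.1% of macrophages, and in 8.54% and 39.7% at 1000 UMIs each, against 1.20% and 0.536% of other barcodes. A single GDSS macrophage held 19.8% of the GDSS TNF UMIs. CCL8, a monocyte chemokine, was at 704 and 2449 CPM, 3.48-fold higher in Yorkshire (3.28 to 3.70), and CCL3L1 at 63.2 and 258 CPM, 4.09-fold (3.36 to 4.99). CCL4 was 2.39-fold higher, NLRP3, the inflammasome sensor, 2.21-fold, PTGS2, the inducible cyclooxygenase, 2.71-fold, and IL10, the anti-inflammatory cytokine, 2.11-fold. For IL10, 28.5% of the GDSS and 23.7% of the Yorkshire UMIs came from 1 cell, and for CCL8 22.8% of the GDSS UMIs did. The list median of 18 inflammatory genes was -0.63. Of them 8 passed 2-fold on the Yorkshire side and 2 on the GDSS side, beside 6.47% and 3.57% of all genes. The 2 in GDSS were CXCL8 and CXCL14, the latter at 175 and 71.6 CPM, 1.09-fold and 1.29-fold above other barcodes.

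TNF, CCL8 and CCL4 were higher in Yorkshire than in GDSS within the resident-gene cells. TNF was at 1201 CPM in Yorkshire and 145 CPM in GDSS resident-gene cells, CCL8 at 3471 and 590 CPM, and CCL4 at 21213 and 4154 CPM. Outside the resident-gene cells several levels rested on few cells. TNF was at 273 and 375 CPM in the C1Q cells without resident genes and at 143 and 147 CPM in the cells without C1Q. A TNF UMI was found in 50% of Yorkshire and 37.3% of GDSS cells of the first of these groups and in 40.6% and 17.2% of the second. In the second, 63.4% of the GDSS TNF UMIs came from 1 cell, and without the top cell of each library TNF was at 124 CPM in Yorkshire and 54.8 CPM in GDSS, so no order is read from the level there. CCL8 was at 143 and 1978 CPM and at 147 and 332 CPM in the same groups, with 57.1%, 66.9%, 100% and 72.6% of the UMIs in 1 cell. CCL4 was at 5681 and 10062 CPM and at 2319 and 10136 CPM, and without the top cells at 2537 and 8218 CPM and at 1667 and 9487 CPM, with GDSS above Yorkshire each time. Whether the states differ between the libraries was not tested, since each state has 1 sum per library.

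IL6 had 15 UMIs in 5 GDSS and 77 UMIs in 9 Yorkshire macrophages, and it was at 68.5 and 56.7 CPM in other barcodes. GNLY, the granulysin of cytotoxic lymphocytes, had 115 UMIs in Yorkshire macrophages, 100% of them in 1 cell. SLPI, PLAT and TAC1 were found in 8 Yorkshire macrophages each, and in 1, 2 and 2 GDSS macrophages. ACKR1 was found in 5 Yorkshire macrophages and FAM167B in 13, against 0 and 4 in GDSS. These 7 genes were among the 12 lowest ratios of GDSS over Yorkshire and rest on few cells.

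CD209 and MAF, of the resident list, were higher in Yorkshire macrophages. CD209 was at 119.6 CPM (106 to 134) in GDSS and at 955 CPM (903 to 1009) in Yorkshire macrophages, 7.98-fold higher in Yorkshire (7.01 to 9.12), and was found in 16.8% and 45.2% of them. At 1000 UMIs each it was found in 6.65% and 27.4%, and other barcodes had it in 0.0919% and 0.124%. Within the resident-gene cells alone it was at 212 and 1363 CPM. MRC1, the mannose receptor, was at 262 and 532 CPM, 2.03-fold higher in Yorkshire, and at 454 and 776 CPM within the resident-gene cells, where it was used to pick the cells. The MRC1 ratio was below 2-fold under 10 of 17 alternatives. MAF, a transcription factor of resident macrophages, was at 24.6 and 70.1 CPM, 2.85-fold higher. The other 8 resident genes lay within 2-fold, with STAB1 at 413 and 403 CPM, SELENOP at 1672 and 1841 CPM and TIMD4, a receptor for dying cells, at 42.8 and 32.0 CPM. The 11 resident genes had a list median of -0.65, with 3 past 2-fold on the Yorkshire side, MRC1 among them, and 0 on the GDSS side. Of all genes, 6.47% and 3.57% passed 2-fold on these sides.

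Immediate early genes were higher in Yorkshire macrophages, while their sum over other barcodes was higher in GDSS. FOS was at 1336 CPM in GDSS and at 4061 CPM in Yorkshire macrophages, 3.04-fold higher in Yorkshire (2.91 to 3.18), and at 10288 and 7222 CPM in other barcodes. NR4A2, a nuclear receptor gene, was at 34.4 and 205 CPM, 5.97-fold (4.64 to 7.75), and EGR2 at 15.7 and 80.0 CPM, 5.10-fold (3.48 to 7.63). FOSB was 2.88-fold higher, at 396 and 1139 CPM. The list median was -1.14. Past 2-fold were 8 of 12 genes on the Yorkshire side and 0 on the GDSS side, beside 6.47% and 3.57% of all genes. The list summed to 4752 CPM in GDSS and 10510.5 CPM in Yorkshire macrophages. In the cells without C1Q the FOS levels were 1087 and 1115 CPM.

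Heat shock chaperones had a median of -0.50, and 1 of 13 was at least 2-fold higher in Yorkshire, near the 6.47% of all genes. That gene was HSPA6, an inducible chaperone, at 205 and 601 CPM against 402 and 301 CPM in other barcodes, with 20.4% of its Yorkshire UMIs in 1 cell. In other barcodes the chaperone list summed to 23807 CPM in GDSS and 20468 CPM in Yorkshire.

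Growth factors went both ways. CSF1, the growth factor of macrophages, was at 54.7 CPM in GDSS and at 262 CPM in Yorkshire macrophages, 4.79-fold higher in Yorkshire (3.90 to 5.91), and at 67.2 and 67.6 CPM in other barcodes. VEGFA, the vascular growth factor, was at 61.9 and 164 CPM, 2.65-fold higher (2.13 to 3.29). AREG, an epidermal growth factor receptor ligand known for its role in muscle repair, was at 243 and 83.1 CPM, with 20.4% and 31.2% of its UMIs in 1 cell of each library, and its log2 ratio turned from 1.55 to -0.31 without the 131 GDSS and 76 Yorkshire cells that held 5 or more UMIs of another cell type's markers. With ERBB3, PMP22 and PECAM1 left out of those markers, 10 and 17 cells were dropped and the log2 ratio of AREG was 1.24. TGFB1 was 1.64-fold higher in GDSS, at 640.5 against 389 CPM. IGF1, a growth factor for muscle fibres, was found in 14.9% and 21.9% of macrophages, at 30.1 and 38.1 CPM, and in 5.42% and 8.5% of other barcodes.

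Lipid-associated genes split as well. SPP1, osteopontin, was at 638 CPM in GDSS and at 2331 CPM in Yorkshire macrophages, 3.65-fold higher in Yorkshire (3.43 to 3.89), with 30.8% and 31.3% of its UMIs in 1 cell of each library, and without those cells its log2 ratio was -1.86. FABP4, a fatty acid carrier of adipocytes and endothelium, was at 55.6 and 323 CPM, and at 170.4 and 1344 CPM in other barcodes. APOE, apolipoprotein E, was 2.53-fold higher in GDSS, at 341 and 135 CPM, below its 1022 and 301 CPM in other barcodes. TREM2, the lipid receptor that gives this type of macrophage its name, was found in 20.9% and 18.5% of macrophages, at 41.1 and 30.5 CPM, and in 0.00835% and 0.00687% of other barcodes. Of 14 genes, APOE and LPL passed 2-fold on the GDSS side, SPP1 and FABP4 on the Yorkshire side, beside 3.57% and 6.47% of all genes. FABP4 and LPL did not reach 3 times the free RNA estimate in the library where they were higher, and the other 12 genes did.

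Of 22 lysosomal genes, 2 passed 2-fold on the Yorkshire side and 0 on the GDSS side, near the 6.47% and 3.57% of all genes, with a median of -0.05. The 2 genes were GLA, alpha-galactosidase, at 175 CPM in GDSS and at 585 CPM in Yorkshire macrophages, 3.35-fold higher in Yorkshire (2.97 to 3.78), and HEXA, a chain of beta-hexosaminidase, at 93.7 and 193 CPM, 2.06-fold (1.71 to 2.48). GLA was found in 62.0% and 87.7% of macrophages. LGMN, an endoprotease of lysosomes, was at 1405 and 1191 CPM. CTSH and LAMP1 were 1.77-fold and 1.72-fold higher in GDSS.

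Interferon genes had a median of -0.69 with 2 of 13 at least 2-fold higher in Yorkshire and 1, IFIT2, in GDSS. Of all genes, 6.47% and 3.57% were. IFI44L was at 22.9 CPM in GDSS and at 61.0 CPM in Yorkshire macrophages, and at 19.3 and 29.4 CPM in other barcodes. OAS2, a sensor of double-stranded RNA, was at 14.4 and 35.8 CPM, and at 5.41 and 23.7 CPM elsewhere. The 4 class I genes that entered had a median of -0.61 and 0 were 2-fold apart, with B2M at 4362 and 4650.5 CPM.

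ADAM8, a sheddase of leukocytes, was at 110.3 CPM in GDSS and at 35.8 CPM in Yorkshire macrophages, 3.08-fold higher in GDSS (2.25 to 4.30). MMP9, a gelatinase of myeloid cells, was at 74.2 and 133 CPM. HMGB2, a chromatin protein of cycling cells, was 2.22-fold higher in GDSS. The macrophage transcription factors had a median of -0.17. KLF4 (228 and 533 CPM) and MAF, 2 of 18, were at least 2-fold higher in Yorkshire, beside 6.47% of all genes. SPI1 (PU.1) was at 640.5 and 553 CPM. Of 12 glycolysis genes, 11 lay within 2-fold, as did most of all genes.

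**Figure D5:**
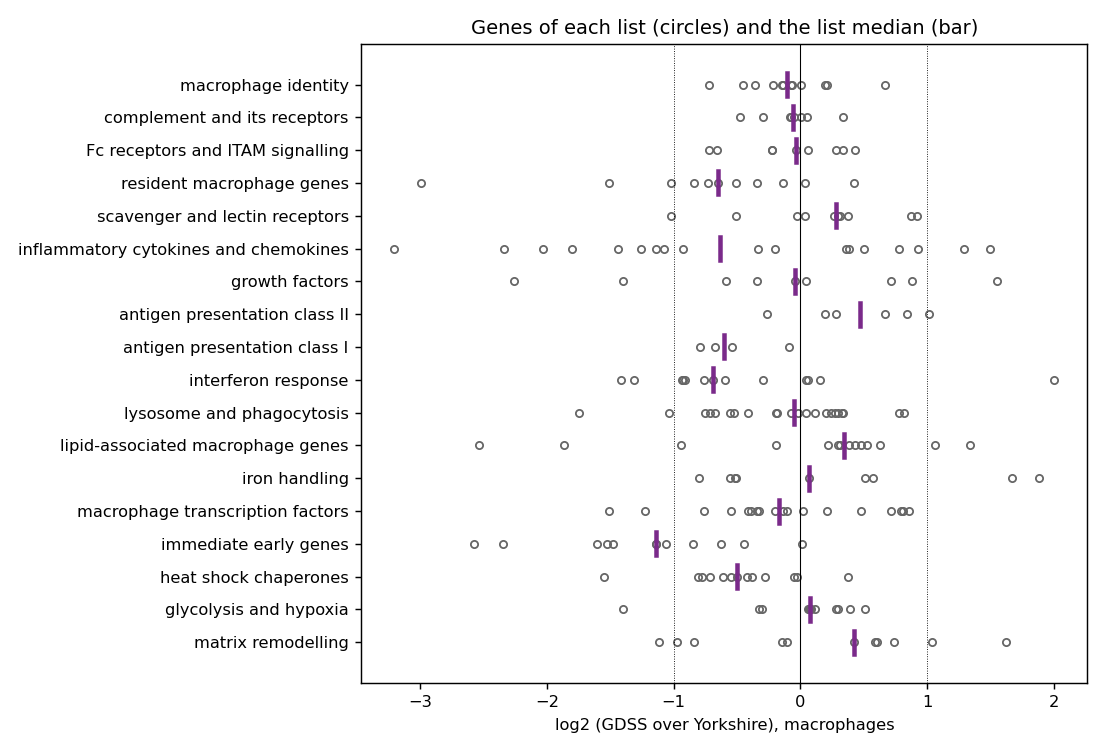
Each circle is 1 gene with at least 50 UMIs, the horizontal axis is the log2 ratio of GDSS over Yorkshire macrophages, bars are list medians and dotted lines mark 2-fold. Identity, complement and Fc receptor genes, which include C1QB, C1QC and TYROBP of the rule, stay within 2-fold, as most of all genes do. The immediate early genes lie mostly on the Yorkshire side, and the inflammatory genes spread to both sides.

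FAP genes ran towards GDSS, with 4 of 7 past 2-fold, beside 3.57% of all genes, and 0 of 7 above 3 times the free RNA estimate. Contractile genes of muscle fibres were higher in Yorkshire macrophages. All 6 myofibre markers that entered passed 2-fold on the Yorkshire side, beside 6.47% of all genes, and the list median was -2.86. MYLPF, a myosin light chain of fast fibres, was at 12.7 CPM in GDSS and at 168 CPM in Yorkshire macrophages, 13.2-fold higher in Yorkshire (9.01 to 20.1), and found in 4.43% and 34.2% of them and in 5.33% and 14.8% of other barcodes. TNNT3, a fast troponin, was 7.67-fold higher, and TCAP, a titin-binding protein, 10.8-fold. In other barcodes MYLPF was at 87.5 and 292 CPM and TNNT3 at 52.3 and 189 CPM. Within the macrophages ACTA1, skeletal actin, was at 142 and 536 CPM in the resident-gene cells and at 34.0 and 71.7 CPM in the cells without C1Q. The part of free RNA and of doublets in these values was not tested. COL18A1, a basement membrane collagen found in 4.43% and 31.5% of macrophages, was 8.03-fold higher in Yorkshire (4.70 to 14.5), at 7.21 and 57.9 CPM, and at 151 and 104 CPM in other barcodes.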

How the data were processed

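The authors deposited raw UMI counts per gene and barcode for each library, with Cell Ranger named, per the submitters' processing notes, beside R 3.5.2 whose role is not stated. The matrix headers give software version 3.1.0, per the file headers. The genome build and annotation are not given in the sources used here. Of 21301 features, 14846 carried a deposited symbol and 680 of the other 6455 were given a symbol from a reference gene table.

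UMIs of the macrophages were summed per library and expressed as CPM of their own sum. Shares have exact Clopper-Pearson, levels exact Poisson and ratios exact conditional binomial 95% intervals. Genes needed at least 50 UMIs over both sums for the breeds, 50 in the macrophages of each library against other barcodes, and 20 over both groups in each library for the states. A gene was counted as different at 2-fold. A level of 0 UMIs was set to 3 UMIs in a ratio, which is then a bound. Cells were also thinned to 1000 UMIs, and TMM and median-of-ratios scaling were tried.

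Named genes were the 20 with the largest smaller fold over other barcodes, the 12 highest and 12 lowest ratios between the libraries, at most 4 genes per list by size of difference, and the 10 highest and 10 lowest genes between the states, of which some are not reported here. The members and lists were chosen with earlier results of these data known. The split by C1Q and the genes HLA-DRA, IL1R2, LDHA, CSF3R and CLDN5 were chosen after their values were seen, and so were the levels without the cell holding most UMIs of a gene and the shortened marker lists. Doublets were not removed, and the rule has no limit on mitochondrial UMIs. In data simulated for GDSS against Yorkshire, with 200 of 5346 genes changed 3-fold, 95.4% of the changed genes and 0.330% of the others passed 2-fold. The simulated sums held Poisson counting error only, with no spread between cells or animals. These shares are therefore no error rate for the genes counted as different above. Python 3.11.15, numpy 2.4.6, scipy 1.17.1, pandas 2.3.3, matplotlib 3.10.9, R 4.3.3 and edgeR 4.0.16 (TMM factors only) were used.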

Additional observations from a re-analysis of the deposited data

Results flagged for a closer look

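In 5 genes the resident-gene cells stood above the cells without LYVE1, FOLR2 and MRC1 in one library and below them in the other. The log2 ratio of resident-gene cells over cells with none was -1.08 in GDSS and 3.02 in Yorkshire for IL10. It was -1.30 and 2.53 for CCL4, and -1.10 and 1.99 for CCL3L1, both chemokine genes. For CXCL10, an interferon-induced chemokine, it was -1.66 and 6.47, with a UMI in 24 GDSS and 19 Yorkshire macrophages and 62.2% and 24.0% of the UMIs in 1 cell. FABP4 ran the other way, with 6.33 in GDSS and -1.69 in Yorkshire, from 17 and 40 macrophages, and its level in other barcodes was above that in macrophages in both libraries. With 1 library per breed, the difference between the libraries was not tested.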

How the results depend on the processing

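Macrophages were 2.44% of GDSS cells with at least 10 UMIs of the rule genes, 3.29% with a stricter limit on genes per cell, 2.24% (Yorkshire 0.796%) among cells with C1Q and 1.6% (Yorkshire 0.489%) without cells holding 5 or more UMIs of another cell type's markers, which drops 131 GDSS and 76 Yorkshire cells. The share with at least 2 UMIs of LYVE1, FOLR2 and MRC1 was 69.0% in GDSS and 85.1% in Yorkshire among C1Q cells, and 25% and 40.4% at 1000 UMIs per cell. Without cells holding other markers, 326 genes were higher than in other barcodes, 183 higher in Yorkshire, 91 higher and 128 lower in resident-gene cells. At 1000 UMIs per cell these were 132, 64, 51 and 46, with 64 higher in GDSS. Both alternatives leave fewer genes with enough UMIs. Among C1Q cells 93 genes were lower in resident-gene cells, and at 50 UMIs per gene 112 were higher and 112 lower. Genes higher in GDSS and in Yorkshire numbered 368 and 751 at 20 UMIs, 63 and 108 at 200, and 809 and 1612 at 1. With equal weight to the 3 states they numbered 468 and 579, and the cause was not tested. There the 4 Yorkshire cells with exactly 1 UMI of LYVE1, FOLR2 and MRC1 weigh as much as each other state. With equal weight to the states of none and at least 2 UMIs only, a setting added later, the counts were 183 and 359.

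GDSS-higher genes were 35.6% of those 2-fold apart, against 50% at 1000 UMIs per cell, 44.5% without cells holding other markers and 44.7% with equal weights. AREG turned to a log2 ratio of -0.31 without cells holding other markers and the FAP marker median from 1.18 to -0.32 with equal weights; the cause was not tested. Of 55 named genes 2-fold apart, 35 stayed so under every alternative that gave a ratio. Some alternatives gave none for genes with few UMIs. GNLY had a ratio under 15 alternatives, and without its top cell 0 UMIs were left in either library. No paired analysis was possible because each breed has 1 library. With fewer Yorkshire macrophages, low genes rest on few UMIs, and 1 library per breed limits every comparison.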
